A study of Mus musculus with 12 samples.

Results

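The Il12b and Il6 loci were examined as 2 windows of the mm9 mouse genome, chromosome 11 from 44.15 to 44.26 Mb for Il12b and chromosome 5 from 30.28 to 30.4 Mb for Il6. A hotspot, which is a region enriched for sequence tags in a single library, belonged to a locus when at least 1 bp of it lay in the window. Of the 50940 hotspots deposited for 10 libraries, 22 met this rule, 15 at Il12b and 7 at Il6. The mice were C57BL/6J, and the cells were macrophages derived in culture from their bone marrow. RelA was immunoprecipitated from wild-type cells and from cells labelled as littermate controls, and Ikaros from wild-type cells, each after 0, 3 and 8 h of lipopolysaccharide (LPS), a bacterial surface molecule that activates macrophages. Input DNA came from untreated wild-type cells. Each group held 1 library, so no value below has a spread between replicates and no test between conditions was possible. The LPS dose and the age of the animals are not given in the labels, nor is what the littermates were littermates of. These libraries carry no expression values, so the labelled cell type could not be checked against markers. The times are those of the labels, and some file names carry another time.

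RelA is a DNA-binding subunit of NF-kB, which is held in the cytoplasm of resting cells by IkB proteins and enters the nucleus when LPS is sensed by its receptor. Il12b encodes the p40 chain shared by the cytokines interleukin-12 and interleukin-23, and Il6 encodes interleukin-6. Both are secreted by activated macrophages and are long-studied targets of NF-kB. Ikaros, encoded by Ikzf1, is a zinc finger protein known mainly from lymphocytes, where it binds DNA through a GGGA core and can recruit chromatin-remodelling complexes.

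The sequences immediately upstream of the 2 genes are shown with matches to short motifs of the kind that RelA or Ikaros is known to recognise. They are the 250 bases before the RefSeq gene start on GRCm38.p6, plus strand, chr11:44399813-44400062 for Il12b and chr5:30012864-30013113 for Il6. These positions belong to another build than the hotspots, so whether a hotspot covers either sequence was not examined. Capitals mark matches, on either strand, to an NF-kB motif (GGGNNTTTCC), an NF-kB half-site (AATTCCC) or an Ikaros motif (TGGGAA), which were chosen with these sequences in view. The GGGA core alone was not searched for, so a sequence with no match to the Ikaros motif can still hold that core.
Il12b: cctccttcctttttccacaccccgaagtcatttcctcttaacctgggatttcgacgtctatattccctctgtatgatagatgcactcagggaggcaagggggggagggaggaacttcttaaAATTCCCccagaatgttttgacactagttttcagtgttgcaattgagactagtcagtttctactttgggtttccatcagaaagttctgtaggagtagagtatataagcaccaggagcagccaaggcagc
Il6: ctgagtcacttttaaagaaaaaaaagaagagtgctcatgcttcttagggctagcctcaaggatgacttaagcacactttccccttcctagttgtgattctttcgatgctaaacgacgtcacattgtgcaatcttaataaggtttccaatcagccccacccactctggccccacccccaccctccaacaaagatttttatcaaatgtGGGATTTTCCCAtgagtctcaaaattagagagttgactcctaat

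The Il6 sequence held 1 match to the NF-kB motif, 44 to 35 bases before the gene start, and 1 match to the Ikaros motif on the minus strand, 38 to 33 bases before it. The 2 matches share bases, and together they make up the run in capitals. The Il12b sequence held 1 match to the half-site, 129 to 123 bases before the gene start, and none to the other motifs. Over 32851 RefSeq promoters of the same length, 1.41% held the NF-kB motif, 3.08% the half-site and 21.6% the Ikaros motif. Because the motifs were chosen with the 2 sequences in view, these shares do not measure how unusual the matches are. In the GRCm38.p6 gene order, the protein-coding neighbours are Adra1b and Ublcp1 for Il12b, and Dnajb6 and Tyms for Il6.

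No hotspot of wild-type input lay in either window, and the nearest was 9691 kb from Il12b site A and 2688 kb from Il6 site E. Over the series, between 12 and 131 hotspots of each immunoprecipitated list overlapped input and were removed before ranking, none of them at these loci. The lists that remained differed greatly in length, from 47 hotspots for wild-type RelA at 0 h to 13796 for Ikaros at 8 h. The median of the highest tag density was 18.5 to 25.5 in the wild-type lists and 4.11 to 4.56 in the littermate lists. Neither the scale of these densities nor the sequencing depth behind them is known. Each hotspot is therefore given with the authors' highest density, the authors' z score and its rank by z score among the hotspots of its own list, where rank 1 is the strongest.

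The 22 hotspots formed 12 sites when hotspots that overlapped by at least 1 bp were joined, 7 at Il12b and 5 at Il6, lettered here from low to high coordinate. Ikaros was listed at 10 of the sites, RelA at 5, and both at 3. Unstimulated cells had a single hotspot, a weak RelA call of the littermate series, and the other 21 came from libraries of LPS-treated cells, as did 86.5% of the 49690 hotspots of the 9 immunoprecipitated lists. Sites listed in a single library numbered 3 of 7 at Il12b and 4 of 5 at Il6.

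**Figure D1:**
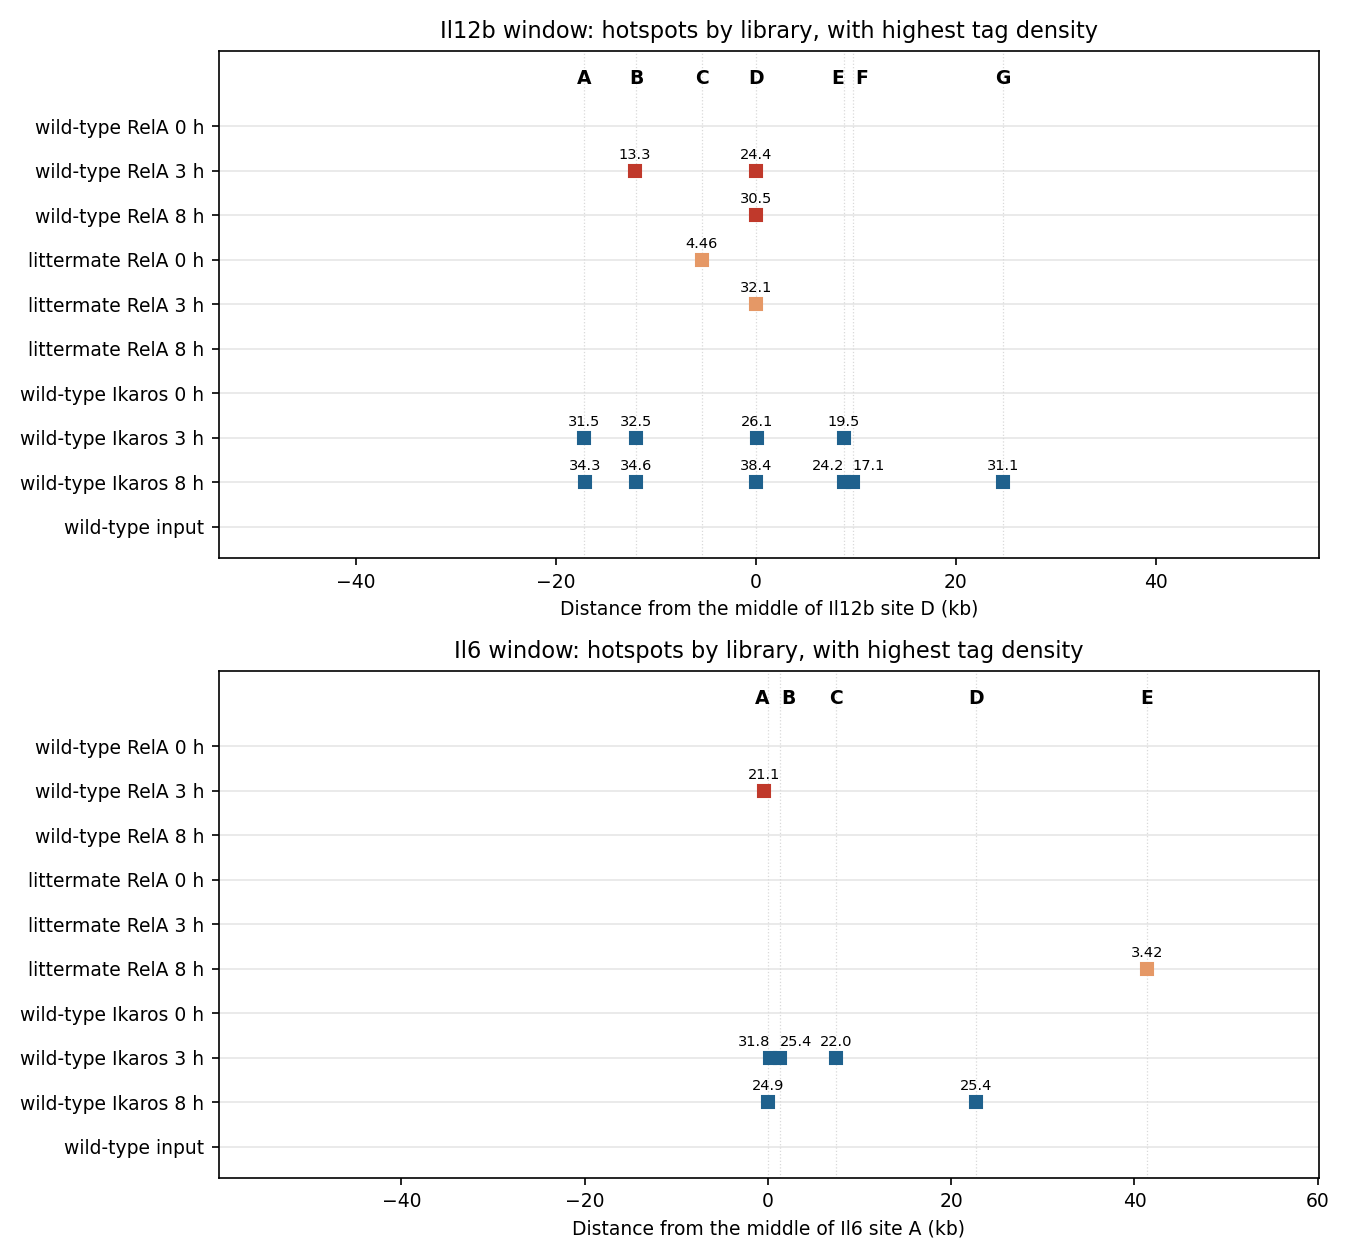
Hotspots of the Il12b window (upper panel) and the Il6 window (lower panel) in each library, placed by the distance of their middle from Il12b site D or Il6 site A in kb. Squares are hotspots, numbers their highest tag density on the authors' scale, and letters the sites. Empty rows are libraries with no hotspot in the window: 4 of 10 at Il12b and 6 of 10 at Il6.

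At Il12b, RelA was absent from the wild-type list at 0 h, had 2 hotspots at 3 h and 1 at 8 h, while Ikaros had none at 0 h, 4 at 3 h and 6 at 8 h. At 0 h the wild-type lists held 47 RelA and 853 Ikaros hotspots over the whole genome, so most windows of this length would be empty. No tile share was computed for these 2 lists. For comparison, the genome was cut into 24000 adjoining tiles as long as the window. Of these, 4.47% held 2 or more wild-type RelA hotspots at 3 h, 5.62% held 1 or more at 8 h, 1.50% held 4 or more Ikaros hotspots at 3 h and 1.33% held 6 or more at 8 h. In the littermate series the window held 1 RelA hotspot at 0 h, 1 at 3 h and none at 8 h, where 18.8%, 28.6% and 17.3% of tiles held 1 or more. The 4 Ikaros hotspots at 3 h all had a counterpart at 8 h, against 82.1% of the whole Ikaros 3 h list, and 0 of 4 had one at 0 h, against 10.6%. Seen from 8 h, 4 of the 6 Ikaros hotspots had a counterpart at 3 h, against 42.2% of the whole 8 h list.

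Il12b site D, on chromosome 11 from 44203278 to 44204104, was the place where RelA and Ikaros met most often, with a hotspot in 5 of the 9 immunoprecipitated libraries. In wild-type cells RelA was not listed there at 0 h, had a highest density of 24.4 (z score 23.5, rank 742 of 4972) at 3 h and of 30.5 (z score 18.3, rank 744 of 1878) at 8 h. In littermate cells RelA was not listed at 0 h, had a highest density of 32.1 (z score 29.5, rank 1015 of 9999) at 3 h, and was not listed at 8 h. Ikaros was not listed at 0 h and had highest densities of 26.1 (z score 17.9, rank 1859 of 7109) at 3 h and 38.4 (z score 23.6, rank 2200 of 13796) at 8 h. Both factors were thus listed at site D after LPS and neither before it, with RelA at 8 h in the wild-type list alone.

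Site D stood in the strongest quintile of the wild-type RelA 3 h list by z score. Of the 994 hotspots of that quintile, 80.4% were also in the littermate 3 h list, 77.1% in the wild-type 8 h list, 86.4% in the Ikaros 8 h list and 77.5% in the Ikaros 3 h list. Presence in each of the 4, taken singly, was thus shared by most regions of like strength. The share present in all 4 at once was not counted. Absence from the littermate 8 h list was also common. Of 1171 wild-type RelA 3 h hotspots that were found in the wild-type 8 h and the littermate 3 h lists, 37.5% were not in the littermate 8 h list. The nearest littermate 8 h hotspot was 114 kb from site D. Over both windows, 1 of the 3 wild-type RelA 3 h hotspots was kept at 8 h, against 31.3% of the list, and 1 was in the littermate 3 h list, against 34.4%, and in each case it was the hotspot of site D. The single 8 h hotspot had been listed at 3 h, as had 83.9% of the 8 h list. In the littermate 3 h library site D was 7.81 times the list median in highest density, and 2.82% of that list ranked as high or higher by this measure. In wild-type RelA the same ratio was 1.20 at 8 h and 1.32 at 3 h. The list medians behind these ratios were 4.11 for littermate 3 h, 25.5 for wild-type 8 h and 18.5 for wild-type 3 h. The highest densities of site D itself were 32.1, 30.5 and 24.4 in the same order. By z score it stood at 10.2% of the littermate 3 h list and 14.9% of the wild-type 3 h list.

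Relative to 3 h, wild-type RelA at site D gave different directions by different measures at 8 h. Its highest density was 1.25 times as high at 8 h as at 3 h, and 53.0% of the 1556 shared RelA hotspots were denser at 8 h, with a median ratio of 1.03. Its z score was 0.776 times as high, and z scores were lower at 8 h in 60.3% of the shared hotspots. It stood at 39.6% of the list by z score at 8 h, against 14.9% at 3 h, and 79.3% of shared RelA hotspots likewise stood lower in the shorter 8 h list.

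Il12b site B, on chromosome 11 from 44191378 to 44192021, had the only other overlap of RelA and Ikaros in this window. RelA was listed there only in wild-type cells at 3 h and among the weaker calls, with a highest density of 13.3, a z score of 10.2 and rank 3835 of 4972. Ikaros was far stronger in its own list at the same place, not listed at 0 h, with a highest density of 32.5 (z score 20.0, rank 1358 of 7109) at 3 h and 34.6 (z score 18.8, rank 3895 of 13796) at 8 h. In the fourth quintile of the RelA 3 h list, where this hotspot stood, 43.6% of hotspots overlapped Ikaros at 3 h and 11.7% were also listed for RelA at 8 h. Sites B and D lay 12.0 kb apart, and each was the nearest other RelA hotspot of the 3 h list to the other. The median over all gaps between consecutive hotspots of that list was 107 kb. A nearest distance is the shorter of the gaps on either side, so it tends to lie below that median.

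The remaining Il12b sites carried Ikaros without RelA, except site C. Site A, from 44186126 to 44186953, had Ikaros highest densities of 34.3 at 8 h and 31.5 at 3 h, with z scores of 24.8 and 21.1. Those placed it at 13.8% of the list at 8 h and 16.2% at 3 h, the strongest Ikaros hotspot of the window by z score at both times. Site E, from 44212169 to 44212853, had highest densities of 24.2 at 8 h and 19.5 at 3 h, and stood at 31.2% of the list by z score at 8 h, against 81.8% at 3 h. Its hotspot was 684 bp wide at 8 h and 353 bp at 3 h.

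Sites F and G were Ikaros sites of the 8 h list alone, as were 57.4% of all Ikaros 8 h hotspots, which overlapped no earlier Ikaros hotspot. Site F, from 44213265 to 44213516, was among the weakest calls, with a highest density of 17.1, a z score of 10.1 and rank 13057 of 13796. It began 412 bp after the end of site E. Site G, from 44228030 to 44228821, was stronger, with a highest density of 31.1, a z score of 20.5 and rank 3167 of 13796. It lay 15.0 kb from site F and 24.7 kb from site D. Site C, from 44198180 to 44198431, was a RelA hotspot of the unstimulated littermate library alone, with a highest density of 4.46, slightly below that list's median, a z score of 12.1 and rank 4004 of 5805. It lay 5.39 kb from site D and overlapped no hotspot of another library.

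Measured between middles, the 7 Il12b sites spanned 41.9 kb of the 110 kb window. Neighbouring sites from A to G were 5.16, 6.61, 5.39, 8.82, 0.880 and 15.0 kb apart. In the Ikaros 8 h list, the nearest other Ikaros hotspot was 0.880 to 15.0 kb away for the 6 hotspots of the window. The median over all gaps between consecutive hotspots of that list was 33.5 kb. A nearest distance is the shorter of the gaps on either side, so it tends to lie below that median.

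The Il6 window held 2 RelA hotspots over the 6 RelA libraries, against 5 in the Il12b window. This order depended on the window edges, since with both windows widened by 50 kb on each side the numbers were 10 at Il6 and 9 at Il12b. The window as given held no wild-type RelA hotspot at 0 h, 1 at 3 h and none at 8 h, against 14.0% of tiles of this length with 1 or more at 3 h. In littermate cells it held none at 0 h, none at 3 h and 1 at 8 h, against 18.6% of tiles with 1 or more at 8 h. Ikaros had no hotspot at 0 h, 3 at 3 h and 2 at 8 h, where 3.55% of tiles held 3 or more at 3 h and 15.3% held 2 or more at 8 h. No tile share was computed for the lists with no hotspot here. Wild-type RelA lists of 0 and 8 h held 47 and 1878 hotspots. Littermate lists of 0 and 3 h held 5805 and 9999, and the Ikaros 0 h list 853. Over 21998 tiles of this length, most were therefore empty in each of those lists. Of the 3 Ikaros hotspots at 3 h, 1 had a counterpart at 8 h, against 82.1% of the whole Ikaros 3 h list, and 0 of 3 had one at 0 h, against 10.6%.

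Il6 site A, on chromosome 5 from 30339097 to 30340700, was the only place in this window with both factors. Wild-type RelA was not listed at 0 h, had a highest density of 21.1 (z score 16.5, rank 1543 of 4972) at 3 h, and was not listed at 8 h. Littermate RelA was not listed there at any time, and the nearest littermate 3 h hotspot was 65.0 kb away. Ikaros was not listed at 0 h and had a highest density of 31.8 (z score 25.1, rank 677 of 7109) at 3 h and 24.9 (z score 16.9, rank 4976 of 13796) at 8 h. RelA was therefore recorded at site A in 1 of 6 RelA libraries, and Ikaros at both times after LPS.

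The RelA hotspot of Il6 site A stood in the second strongest quintile of the wild-type 3 h list. In that quintile 44.9% of hotspots were in the littermate 3 h list, 38.1% in the wild-type 8 h list, 74.0% in the Ikaros 8 h list and 62.5% in the Ikaros 3 h list. Over the whole wild-type 3 h list, 22.2% of hotspots had this same pattern, listed with Ikaros at 3 and 8 h and in no other RelA list after LPS. Of the RelA 3 h hotspots not kept at 8 h, 58.2% overlapped Ikaros at 8 h.

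**Figure D2:**
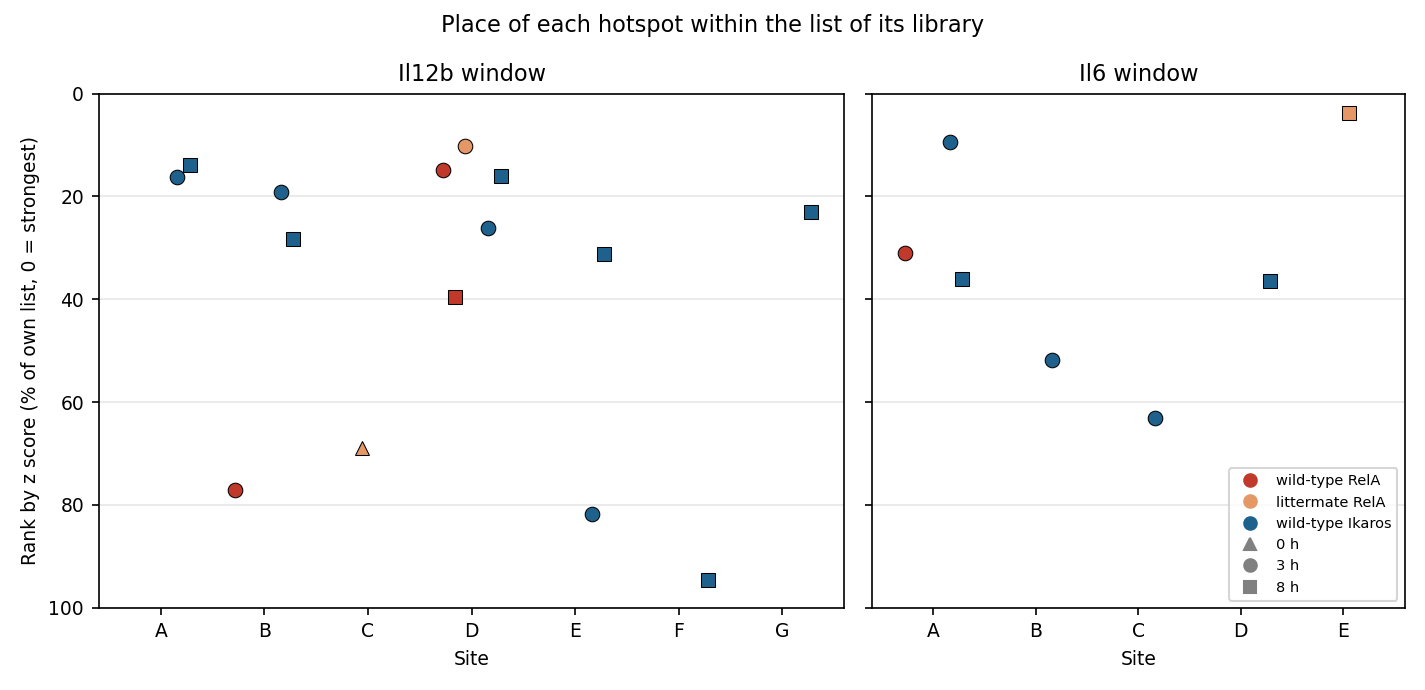
Rank by z score of each hotspot as a percentage of its own list (0 at the top is the strongest), by site, for the Il12b window (left) and the Il6 window (right). Colours give the factor and series, and triangles, circles and squares give 0, 3 and 8 h of LPS. Ikaros at Il6 site A stands at 36.1% at 8 h and 9.52% at 3 h, while Ikaros at Il12b site D stands at 15.9% at 8 h and 26.2% at 3 h.

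The other Il6 sites were each listed in a single library. Site B, from 30340892 to 30341522, held Ikaros at 3 h with a highest density of 25.4, a z score of 13.4 and rank 3678 of 7109. It began 192 bp after the end of site A. Site C, from 30347137 to 30347595, held Ikaros at 3 h with a highest density of 22.0, close to the list median, a z score of 12.2 and rank 4488 of 7109. Site D, from 30362305 to 30362910, held Ikaros at 8 h with a highest density of 25.4, a z score of 16.8 and rank 5034 of 13796. All 3 were thus of middling place in their lists, between 36.5% and 63.1%.

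Il6 site E, from 30381091 to 30381462, was a RelA hotspot of the littermate 8 h library alone, 18.7 kb from site D and 41.4 kb from site A. Its place depended on the measure, since its z score of 25.3 gave rank 203 of 5231 while its highest density of 3.42 gave rank 3867. Middles of neighbouring sites from A to E were 1.31, 6.16, 15.2 and 18.7 kb apart. The window's lower edge passed close to a stronger RelA region, from 30274487 to 30275304 at 3 h, which lay outside and is not among the 22. That region had a RelA highest density of 56.7 at 8 h and 70.0 at 3 h in wild-type cells. In littermate cells the RelA values there were 72.0 at 8 h and 53.4 at 3 h. Ikaros was listed there too, with 30.9 at 8 h and 28.6 at 3 h. The region was 64.5 kb from the RelA hotspot of site A, and was the nearest other RelA hotspot to it in the wild-type 3 h list.

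All 3 RelA hotspots of the wild-type 3 h list in the windows overlapped an Ikaros hotspot of that time, against 54.0% of the whole list, and the single wild-type 8 h hotspot did so at 8 h, against 80.5%. The overlap at Il6 site A was lost under a reciprocal overlap of 50% and with middles required within 500 bp, which left 2 of the 3. The littermate 3 h hotspot at Il12b site D overlapped wild-type Ikaros of that time as well, against 12.6% of its list. That hotspot stood at 2.82% of its list by highest density, and the share among littermate hotspots of like strength was not counted. The littermate 8 h hotspot at Il6 overlapped no wild-type Ikaros hotspot of that time, against 15.8% of its list that did. Seen from Ikaros, 1 of the 8 hotspots at 8 h overlapped wild-type RelA, against 10.8% of the Ikaros list, and 3 of the 7 at 3 h, against 37.1%. Both Ikaros counts lie near the share of the whole lists.

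The overlaps were tighter at Il12b than at Il6. At Il12b site D the middle of the RelA hotspot lay 54.5 bp from that of Ikaros at 8 h and 112.5 bp at 3 h in wild-type cells, and the littermate RelA hotspot at 3 h lay 92.0 bp from it. At site B the distance was 102 bp. The median over all overlapping wild-type pairs was 61.5 bp at 8 h and 67.5 bp at 3 h. At Il6 site A the middles were 647 bp apart, and 2.76% of the 2717 wild-type pairs at 3 h were as far apart or farther. There RelA and Ikaros shared 309 bp, 44.7% of the RelA hotspot and 25.3% of the Ikaros hotspot, which at 1220 bp was as wide as the widest 1.91% of its list. At Il12b the shared part was 75.7% to 100% of the wild-type RelA hotspot.

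**Figure D3:**
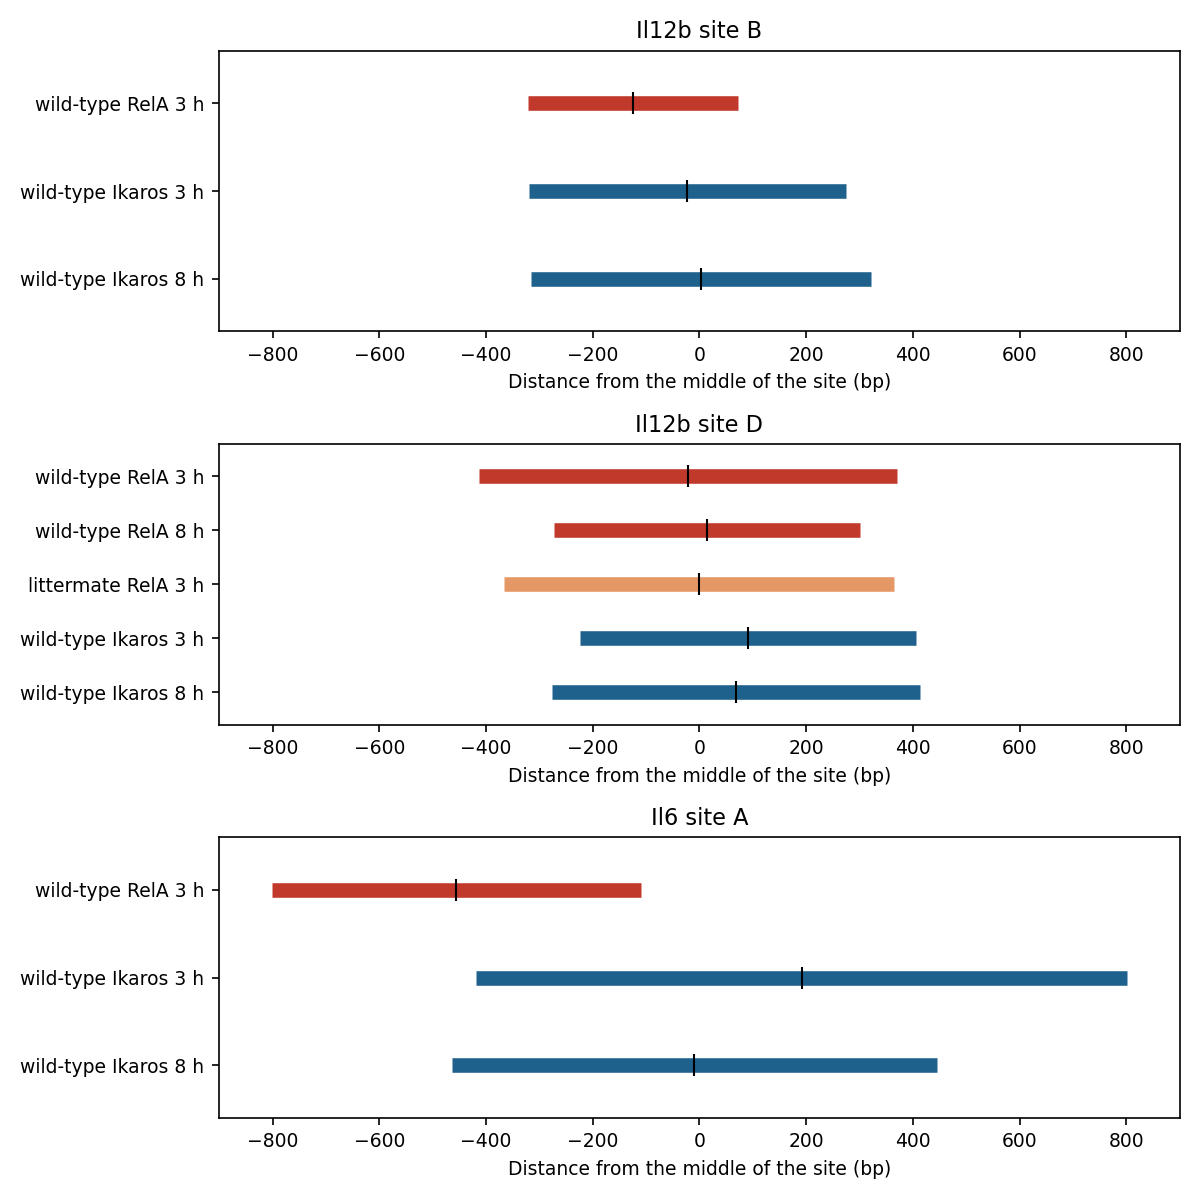
Extent of each hotspot at the 3 sites with both RelA and Ikaros, in bp from the middle of the site. Bars run from the deposited start to the deposited end, and the black tick is the middle. RelA and Ikaros lie over each other at Il12b sites B and D, while at Il6 site A they share 309 bp.

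The authors' highest density of Ikaros was higher at 8 h than at 3 h at the 4 Il12b sites listed at both times. It was lower at 8 h at the single such site of Il6. The 4 Il12b sites listed at both times had ratios of highest density, 8 h over 3 h, of 1.09 at site A, 1.07 at site B, 1.47 at site D and 1.24 at site E. Among all 5840 Ikaros 3 h hotspots shared with 8 h, 76.8% had the higher density at 8 h and the median ratio was 1.28. The Il12b values thus lie within the bulk, with sites A, B and E below that median and site D above it. At Il6 site A the ratio was 0.781, and 23.2% of shared hotspots had the lower density at 8 h. A ratio that low or lower was found in 7.60% of them. By z score the ratio was 0.672 at Il6 site A, 1.18, 1.32 and 1.66 at Il12b sites A, D and E, and 0.938 at site B, where the z score thus went the other way from the density. Of the shared Ikaros hotspots 79.0% had the higher z score at 8 h, and 73.6% stood higher in the 8 h list than in the 3 h list by z score, as Il12b sites A, D and E did and sites B of Il12b and A of Il6 did not. With 1 library at each time, none of these differences could be set against a spread between replicates. The density scale and the depth of each library are unknown, so a ratio above or below 1 need not mean more or less binding.

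**Figure D4:**
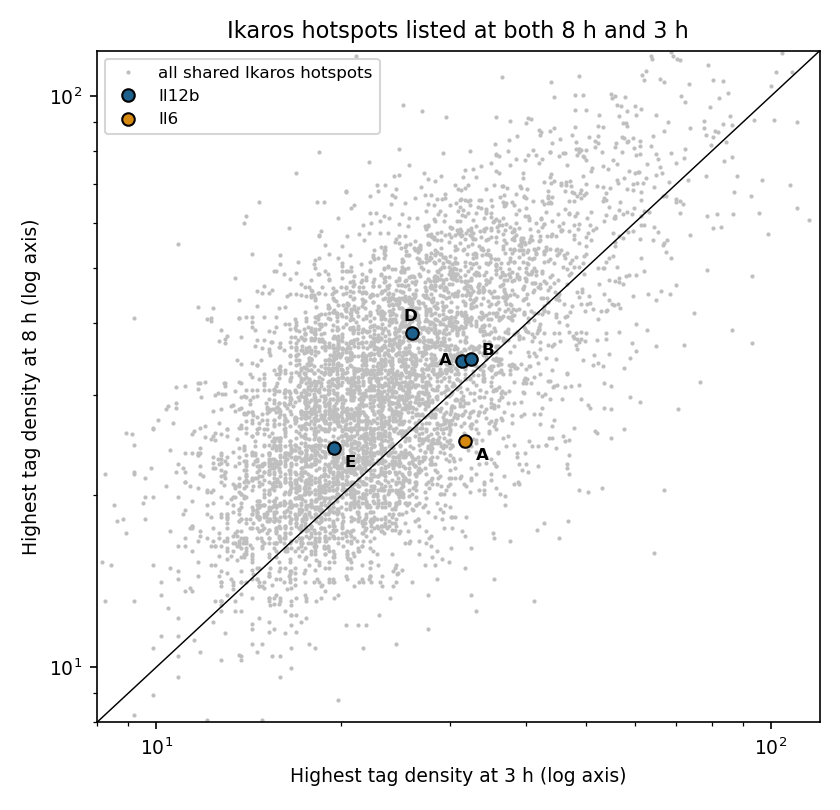
Highest tag density of Ikaros hotspots at 8 h against 3 h, both on log axes, for the 5840 Ikaros 3 h hotspots shared with 8 h (grey, 46 lie outside the axes), with the Il12b sites in blue and Il6 site A in orange. The line marks equal density. The 4 Il12b sites lie above the line, with ratios of 1.07 to 1.47, and Il6 site A lies below it at 0.781.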

How the data were processed

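The data are 10 lists of hotspots, each called in a single library. Per the submitters' processing notes the build is mm9 and CASAVA was used. Which aligner and hotspot caller were used, at what threshold, and how input entered is not given in the sources used here. Region ends are printed as in the files, which do not say whether counting begins at 0 or 1. Per the file headers, the authors deposited a highest and a mean tag density (a signal of unstated scale), a z score and a p-value for every hotspot. The z score ranks hotspots within a list, and the p-values were not used.

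Any hotspot that met a wild-type input hotspot over 1 bp or more was left out, and hotspots of different lists counted as shared at the same overlap. For shared hotspots the densest partner was taken. Tiles started at the first base of each of 21 chromosomes, whose length was taken as the last hotspot end over all files. Every hotspot in the windows is described, and sites in several libraries are given with all values. The members and lists were chosen with earlier results of these data known. No gene was placed in the windows, because the gene table is of GRCm38.p6. Input samples labelled littermate control and KO were not analysed here. Depth per library is unknown. No test was run, since each group has 1 library. Overlap counting was tested on simulated data against bedtools 2.31.1. Software was Python 3.11.15, pandas 2.3.3, numpy 2.4.6, scipy 1.17.1 and matplotlib 3.10.9.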

Additional observations from a re-analysis of the deposited data

Results flagged for a closer look

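In 1 contrast of times at each locus, the numbers of RelA hotspots in the wild-type and littermate series differed in opposite directions, by 1 hotspot. At Il12b, 8 h minus 0 h was 1 in wild-type cells (1 hotspot at 8 h, 0 at 0 h) and -1 in littermate cells (0 at 8 h, 1 at 0 h). At Il6, 8 h minus 3 h was -1 in wild-type cells (0 at 8 h, 1 at 3 h) and 1 in littermate cells (1 at 8 h, 0 at 3 h). The other contrasts were not opposite: 8 h minus 3 h at Il12b was -1 in both series, and 8 h minus 0 h at Il6 was 0 in wild-type cells and 1 in littermate cells. Neither difference was tested, for want of replicates. The littermate hotspots behind both were sites C of Il12b and E of Il6, with highest densities of 4.46 and 3.42.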

How the results depend on the processing

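Over 56 results, 125 of 162 alternatives left the value the same within the bounds used, 35 moved it and 2 turned its direction. Many of the 125 could not have come out otherwise, so this number does not measure robustness. No hotspot of the windows overlapped input, so keeping such hotspots could not alter a count of hotspots or sites. A count of 0 could not change under a density floor or in the upper part of a list. A number moved when it differed by over 1.5 times, and a place in a list when it left its 95% exact binomial interval. That interval served only as a bound, which narrows as a list grows longer, and it measures no spread between replicates. With a highest density of 10 or more, the littermate hotspots of Il12b at 0 h and of Il6 at 8 h were lost (0 left in each). With the upper 50% of each list by z score, Il12b kept 1 wild-type RelA hotspot at 3 h and 0 of littermate RelA at 0 h, and Il6 kept 1 Ikaros hotspot at 3 h. With windows widened by 50 kb on each side, Il12b held 2 wild-type RelA hotspots at 8 h, 2 littermate ones at 3 h and 2 at 0 h, and Il6 held 2 and 4 wild-type RelA hotspots at 8 and 3 h, 2 and 2 littermate ones, and 4 and 5 of Ikaros. The RelA overlap with Ikaros at Il6 site A was lost (0 left) with a reciprocal overlap of 50% and with middles within 500 bp, and no overlap at Il12b was.

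The place of the strongest hotspot by z score moved when ranked by highest or by mean density, except wild-type RelA at Il6 3 h by mean density (31.6%, against 31.0% by z score). At Il12b it was 33.3% and 33.5% for wild-type RelA at 8 h, 27.9% and 25.3% at 3 h, 2.82% and 2.85% for littermate RelA at 3 h, 56.5% and 71.7% at 0 h, 18.8% and 17.9% for Ikaros at 8 h, and 19.0% and 23.6% at 3 h. At Il6 it was 38.5% by highest density for wild-type RelA at 3 h, 73.9% and 54.4% for littermate RelA at 8 h, 42.2% and 40.4% for Ikaros at 8 h, and 18.2% and 14.0% at 3 h. The ratio of 8 h over 3 h by z score, added after the data were seen, was 0.776 for wild-type RelA at Il12b site D and 0.938 for Ikaros at site B, the reverse of their densities; the cause was not tested.

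No paired analysis was possible because each group has 1 library and no value comes from a test. Leaving out a library within a group was not possible for the same reason. A hotspot below a list's threshold cannot be told apart from an absent one. Overlap lengths stand beside the distances between middles in place of an alternative.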
